A study of Arabidopsis thaliana with 24 samples.

Results

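True leaves of Arabidopsis thaliana harvested at subjective dawn were compared with true leaves harvested at subjective dusk, by RNA sequencing. Plants of the wild-type accession Col-0 had been kept for 14 days under cycles of 12 h of light at about 100 µmol m-2 s-1 and 12 h of dark, and were then moved to unbroken light at about 60 µmol m-2 s-1, so that no dark or light signal marked the time of day. ZT (zeitgeber time) gives the hours since that move. The subjective dawn group held the 4 leaf libraries of ZT94 and ZT98, which lie at hours 22 and 2 of a 24 h cycle if ZT counts from lights-on. The subjective dusk group held the 4 leaf libraries of ZT106 and ZT110, at hours 10 and 14. Each time point had 2 libraries, the series having been run as 2 independent experiments, and each sample pooled true leaves of 6 to 10 seedlings. These 8 libraries were chosen by tissue and time alone from 24, of which 12 were leaves and 12 shoot apices. Leaf libraries of ZT90 and ZT102 (hours 18 and 6) were used to show the course between the phases, and shoot apex libraries of the same 4 time points to compare tissues. By the labels both groups had the same genotype, growth and light, and they differed in the time of harvest. The short names of all 24 samples also carry the tag "mock", which dawn, dusk and both tissues therefore share. What a mock treatment consisted of, if one was given, is not stated.

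The circadian clock of plants is a set of transcription factors that repress or activate one another in turn over the day. MYB-like factors made around dawn, among them CCA1 and LHY, repress genes of the evening, and evening proteins such as TOC1 and the complex of ELF3, ELF4 and LUX repress genes of the morning and of the night. The clock keeps running in unbroken light, and in leaves it times photosynthesis, the use of stored starch, cold tolerance and growth.

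Of 33323 genes in the deposited table, 18200 had at least 1 FPKM (fragments per kilobase of transcript, scaled to a fixed number of mapped reads, so a level corrected for gene length and library size) in at least 2 leaf libraries and were tested. All differences are given as dawn minus dusk on the log2(FPKM + 1) scale, ± SE, so that a positive value means a higher level at dawn. This scale understates the change of genes near or below 1 FPKM. A gene was called at an adjusted p under 0.05, and 4118 genes were, which is 22.6% of those tested. Dawn-high genes numbered 1439 (7.91%) and dusk-high genes 2679 (14.7%). The split depended on the scaling of the libraries: after they were rescaled to a common centre, 1885 genes were dawn-high and 1586 dusk-high among 3471 called, which moved the dusk-high share of calls to 45.7%, against 65.1% as deposited. All 1439 dawn-high genes were dawn-high on both scales, and 1586 of the 2679 dusk-high genes stayed dusk-high. The median difference over all tested genes was -0.09, and -0.01 after rescaling. Differences were mostly small: the median size was 0.53 for dawn-high and 0.45 for dusk-high genes, and only 169 dawn-high and 312 dusk-high genes differed by at least 1 on the log2 scale. All 4118 called genes had the same sign in both replicate numbers. The 4 dawn and 4 dusk libraries did not overlap in 78.3% of them, against 22.1% of all tested genes. Both shares come from the libraries that gave the calls, so they describe the calls and lend no further support. Among the fits that left out 1 library, the number of calls was lowest without one of the replicate 2 libraries: it was 2680 without ZT94 replicate 2, 2698 without ZT98 replicate 2, 2600 without ZT106 replicate 2 and 2723 without ZT110 replicate 2.

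The 8 libraries were close in total signal. Their FPKM sums lay between 510511 and 544892, they listed 17020 to 17493 genes at 1 FPKM or more, and the 10 most abundant genes held 9.25% to 14.2% of the sum. Their scale differed with phase. The factors that rescaling divided by were 1.038 and 0.968 at ZT94 and 0.993 and 0.951 at ZT98 (replicate 1 first). They were 1.096 and 1.003 at ZT106 and 1.063 and 1.042 at ZT110. Within each replicate number the dawn factors were below the dusk factors. Read totals are not in the table. The steps between low values put them at about 11100000 to 14400000 reads. Marker genes fitted the leaf label. The 6 mesophyll markers summed to 22859 to 26805 FPKM at dawn and 15253 to 19693 FPKM at dusk. The 9 shoot apex markers summed to 0.233 to 0.42 FPKM at dawn and 0.201 to 0.544 FPKM at dusk, with LFY, CLV3 and WUS listed at 0, and none passed the filter on low values. None of the 4 phloem, 6 guard cell and epidermis and 1 tested root markers was called, against 22.6% of all tested genes. These lists are short, and the phloem markers ran from -0.78 to 0.02. Among the 6 mesophyll markers 2, LHCB1.1 and PSBO2, were dawn-high (3 after rescaling), against 7.91% of all tested genes. In leaves as a bulk sample, fewer cells of a type and less RNA per cell cannot be told apart.

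Dawn-high genes were led by the morning genes of the clock. Of 14 tested members of this list, 10 were dawn-high, against 7.91% of all tested genes, and none was dusk-high. The median difference was 1.98, against -0.09 for all tested genes. In each of these values the level of replicate 1 is given before that of replicate 2. CCA1, a MYB-like repressor of evening genes, had 75.7 and 92.1 FPKM at ZT94 and 82.5 and 97.5 FPKM at ZT98, against 5.38 and 4.36 FPKM at ZT106 and 6.16 and 5.88 FPKM at ZT110. Its partner LHY had 87.6 and 92.7 FPKM at ZT94 and 70.7 and 71.1 FPKM at ZT98, against 3.25 and 3.26 FPKM at ZT106 and 8.59 and 6.56 FPKM at ZT110. Both were high in every dawn library and low in every dusk library, with no overlap. CCA1 averaged 87 ± 9.75 FPKM at dawn and 5.45 ± 0.793 FPKM at dusk (SD, n = 4 each), a 16-fold ratio and a difference of 3.77 ± 0.12 (adjusted p = 2.91e-05), and the difference for LHY was 3.75 ± 0.28 (adjusted p = 0.000469). CCA1 had the smallest p of all 18200 genes.

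The 4 LNK genes, whose proteins act as co-activators with the REVEILLE (RVE) factors, all rose at dawn. LNK2 had 85.4 and 114 FPKM at ZT94 and 151 and 195 FPKM at ZT98, against 21.5 and 17.2 FPKM at ZT106 and 7.95 and 7.96 FPKM at ZT110. LNK3 had 22.3 and 26.3 FPKM at ZT94 and 51.2 and 60.5 FPKM at ZT98, against 4.39 and 3.87 FPKM at ZT106 and 1.3 and 1.22 FPKM at ZT110, and LNK4 had 16.6 and 23.9 FPKM at ZT94 and 48.9 and 55.3 FPKM at ZT98, against 8.5 and 6.7 FPKM at ZT106 and 1.11 and 1.66 FPKM at ZT110. Within dawn the 3 genes were higher at ZT98 than at ZT94 in both replicates, and within dusk they were lower at ZT110 than at ZT106. Their differences were 3.28 ± 0.38 (adjusted p = 0.00156) for LNK2, 3.47 ± 0.43 (adjusted p = 0.00195) for LNK3 and 2.89 ± 0.59 (adjusted p = 0.0127) for LNK4. LNK1 followed the same course, with 11.1 and 11.5 FPKM at ZT94 and 21.8 and 23.1 FPKM at ZT98, against 6.67 and 7.24 FPKM at ZT106 and 2.27 and 2.2 FPKM at ZT110, with a difference of 1.74 ± 0.41 (adjusted p = 0.0208). The LNK1 call was lost when either ZT98 or either ZT110 library was left out.

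REVEILLE genes did not behave alike. RVE8, a MYB-like activator of evening genes, had 35.8 and 37.2 FPKM at ZT94 and 27.9 and 27.4 FPKM at ZT98, against 3.87 and 2.21 FPKM at ZT106 and 7.75 and 6.61 FPKM at ZT110, a difference of 2.53 ± 0.30 (adjusted p = 0.00174). RVE1, which links the clock to auxin synthesis, differed by 2.21 ± 0.19 (adjusted p = 0.000582), ASG4 (also called RVE3) by 1.32 ± 0.15 (adjusted p = 0.00141) and RVE4 by 0.64 ± 0.11 (adjusted p = 0.00731). All 4 were higher in each dawn library than in any dusk library. RVE2 had 46.3 and 68.4 FPKM at ZT94 and 13.8 and 22.1 FPKM at ZT98, against 45 and 49 FPKM at ZT106 and 95.3 and 77.1 FPKM at ZT110. At ZT102, outside the comparison, it was lower still, at 8.1 and 9 FPKM. It was at least as high at ZT94 as at ZT106 and, of the time points compared, lowest at ZT98. The groups thus overlapped and RVE2 was not called (-0.99 ± 0.49, adjusted p = 0.183). RVE7 was not called either (0.21 ± 0.38, adjusted p = 0.726). The pseudo-response regulators PRR9 and PRR7, repressors that follow CCA1 and LHY in the day, also missed the threshold, with 0.86 ± 0.49 (adjusted p = 0.241) for PRR9 and 0.04 ± 0.75 (adjusted p = 0.976) for PRR7. PRR7 had 1.995 and 1.39 FPKM at ZT90, 5.65 and 5.11 FPKM at ZT94, 24 and 26 FPKM at ZT98, 41.2 and 44.9 FPKM at ZT102, 25.6 and 24.8 FPKM at ZT106 and 4.5 and 5.45 FPKM at ZT110. Its highest level thus stood at ZT102, between the phases, and the levels at ZT98 and ZT106 overlapped.

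The 300 bases before the annotated start of 3 dawn-high clock genes are shown because each holds the G-box CACGTG, a site bound by light- and clock-linked bZIP and bHLH factors, in capitals. Sequences run 5′ to 3′ on the strand of the gene and come from RefSeq, assembly TAIR10.1: CCA1 from chr2:19245291-19245590 on the plus strand, LHY from chr1:37872-38171 on the minus strand and LNK3 from chr3:3923215-3923514 on the plus strand. The first base of the G-box lies 193 bases before the start in CCA1, 80 in LHY, and 171 and 141 in LNK3.
CCA1: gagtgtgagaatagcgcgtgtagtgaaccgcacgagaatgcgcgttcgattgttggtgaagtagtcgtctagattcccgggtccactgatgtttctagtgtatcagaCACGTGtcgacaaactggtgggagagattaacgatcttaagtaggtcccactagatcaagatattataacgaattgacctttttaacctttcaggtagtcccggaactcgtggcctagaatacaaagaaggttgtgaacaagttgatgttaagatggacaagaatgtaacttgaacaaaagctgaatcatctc
LHY: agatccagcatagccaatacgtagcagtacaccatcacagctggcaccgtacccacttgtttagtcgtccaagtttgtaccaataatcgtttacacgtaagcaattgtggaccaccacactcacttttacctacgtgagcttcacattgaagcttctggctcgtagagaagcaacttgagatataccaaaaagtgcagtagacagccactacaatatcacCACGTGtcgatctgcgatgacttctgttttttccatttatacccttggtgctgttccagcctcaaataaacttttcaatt
LNK3: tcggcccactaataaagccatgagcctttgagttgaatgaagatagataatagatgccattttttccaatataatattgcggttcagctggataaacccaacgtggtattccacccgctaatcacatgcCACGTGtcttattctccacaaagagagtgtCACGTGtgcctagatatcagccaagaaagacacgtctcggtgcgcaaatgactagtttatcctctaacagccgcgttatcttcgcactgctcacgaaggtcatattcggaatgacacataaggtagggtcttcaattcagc

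Of the 10 called morning genes, 5 had a G-box in this window and none had an evening element (AAAATATCT, the site through which CCA1 and LHY repress evening genes). The G-box was not limited to called morning genes. Of all 14 tested morning genes 8 had it, among them RVE2, PRR9 and PRR7, which were not called. Of the called evening genes 2 had it, LUX and BOA. The evening element stood in 1 morning gene, RVE7, which was not called. Among all promoters of tested genes, 7.83% held a G-box and 2.97% an evening element, counting both strands.

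Dusk-high genes held the evening genes of the clock. Of 14 tested members, 10 were dusk-high, against 14.7% of all tested genes, and none dawn-high, with a median difference of -1.94. JMJD5, a histone demethylase that acts in the clock, had 2.93 and 2.69 FPKM at ZT94 and 1.45 and 1.35 FPKM at ZT98, against 39.9 and 44.7 FPKM at ZT106 and 42.4 and 51.1 FPKM at ZT110. COR27, a repressor of evening genes that cold and blue light also regulate, had 0.388 and 0.586 FPKM at ZT94 and 0.618 and 0.862 FPKM at ZT98, against 17.2 and 21.8 FPKM at ZT106 and 12.3 and 12.5 FPKM at ZT110. FKF1, a blue light receptor that marks CDF repressors for breakdown, had 1.04 and 0.74 FPKM at ZT94 and 1.69 and 1.47 FPKM at ZT98, against 21.7 and 30.6 FPKM at ZT106 and 13.5 and 16.6 FPKM at ZT110. In all 3 every dusk library lay above every dawn library. The differences were -3.91 ± 0.19 (adjusted p = 9.93e-05) for JMJD5, -3.36 ± 0.18 (adjusted p = 0.000142) for COR27 and -3.23 ± 0.25 (adjusted p = 0.000481) for FKF1.

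TOC1, a repressor of CCA1 and LHY, had 9.64 and 6.92 FPKM at ZT94 and 6.6 and 5.05 FPKM at ZT98, against 40.2 and 37.5 FPKM at ZT106 and 32.7 and 31.8 FPKM at ZT110, a difference of -2.21 ± 0.15 (adjusted p = 0.000396). The 3 members of the evening complex moved the same way. ELF4 had 9.71 and 8.21 FPKM at ZT94 and 9.05 and 6.58 FPKM at ZT98, against 51.6 and 73.2 FPKM at ZT106 and 44.8 and 52.9 FPKM at ZT110, with a difference of -2.58 ± 0.17 (adjusted p = 0.000365). LUX, the DNA-binding member, differed by -2.05 ± 0.19 (adjusted p = 0.000761), and ELF3 by -1.42 ± 0.19 (adjusted p = 0.00238). None of these 4 genes had overlapping groups. BOA, a close relative of LUX, differed by -1.82 ± 0.30 (adjusted p = 0.00562) and PRR3 by -2.63 ± 0.16 (adjusted p = 0.000248). PRR5, a repressor of CCA1 and LHY, had 1.26 and 1.4 FPKM at ZT94 and 3.003 and 3.28 FPKM at ZT98, against 14.2 and 17.1 FPKM at ZT106 and 4.55 and 7.05 FPKM at ZT110, and differed by -1.76 ± 0.40 (adjusted p = 0.0189): it was highest at ZT106, and its call was lost without ZT94 replicate 2 or without ZT106 replicate 2.

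Of the 4 evening members that were not called, GI, a large scaffold protein of the evening, came nearest. GI had 0.788 and 1.1 FPKM at ZT94 and 3.99 and 4.08 FPKM at ZT98, against 15.8 and 15.5 FPKM at ZT106 and 3.84 and 4.49 FPKM at ZT110. Among the time points compared, the high levels stood only at ZT106, and the values of ZT98 and ZT110 overlapped. At ZT102, outside the comparison, GI was high as well, at 12.5 and 13.6 FPKM. The difference was -1.57 ± 0.56 (adjusted p = 0.0795). ZTL, which targets TOC1 for breakdown and is known to be regulated mainly as a protein, had 16.1 ± 0.555 FPKM at dawn and 17.3 ± 1.06 FPKM at dusk and a difference of -0.10 ± 0.062 (adjusted p = 0.274). LKP2 (-0.11 ± 0.069, adjusted p = 0.277) and TCP21 (-0.12 ± 0.17, adjusted p = 0.645) overlapped between the groups as well.

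The same window is shown for a pair of dusk-high clock genes, because each holds the evening element (in capitals, where AGATATTTT is the element on the opposite strand): FKF1 from chr1:25508339-25508638 on the plus strand and TOC1 from chr5:24674663-24674962 on the plus strand. The first base of the element lies 186 bases before the start in FKF1 and 151 in TOC1.
FKF1: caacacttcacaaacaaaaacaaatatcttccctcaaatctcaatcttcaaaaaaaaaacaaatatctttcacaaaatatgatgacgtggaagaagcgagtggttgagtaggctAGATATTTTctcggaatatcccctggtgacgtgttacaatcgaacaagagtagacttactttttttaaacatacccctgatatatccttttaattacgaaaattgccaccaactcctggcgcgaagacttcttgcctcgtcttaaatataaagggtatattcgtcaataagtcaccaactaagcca
TOC1: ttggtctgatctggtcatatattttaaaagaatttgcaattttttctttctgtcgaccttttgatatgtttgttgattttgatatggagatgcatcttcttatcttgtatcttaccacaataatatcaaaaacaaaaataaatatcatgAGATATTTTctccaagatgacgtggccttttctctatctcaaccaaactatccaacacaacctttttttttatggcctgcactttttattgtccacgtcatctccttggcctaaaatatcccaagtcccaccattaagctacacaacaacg

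The evening element lay in this window of 6 of the 10 called evening genes, among them TOC1, PRR5, FKF1, LUX and BOA. Over all called genes it was found in 172 of 2659 dusk-high promoters (6.47%) and in 25 of 1434 dawn-high promoters (1.74%), against 2.97% of all 18120 promoters read. Among genes that differed by at least 1 on the log2 scale the shares were 16% of dusk-high promoters (50 of 312) and 1.8% of dawn-high promoters (3 of 167). The G-box stood in 8.44% of dawn-high and 8.42% of dusk-high promoters, and in 18% and 12.2% of those that differed by at least 1. A shorter relative of the evening element, the CCA1 binding site AAAAATCT, was found in 7.04% of dawn-high, 8.95% of dusk-high and 8.07% of all promoters. CACATG, a site described for hormone genes that peak at dawn, was in 11.8% of dawn-high, 14.1% of dusk-high and 12.8% of all promoters. The I-box GATAAG, known from light-regulated promoters, was in 13.5%, 15.6% and 14.8% in the same order. For differences of at least 1, the dawn-high and dusk-high shares were 7.78% and 10.6% for the CCA1 binding site. They were 16.2% and 17.9% for CACATG and 12.6% and 20.8% for the I-box. None of the 7 motifs searched lies within another. A match is a run of letters and not a measured binding site.

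**Figure D1:**
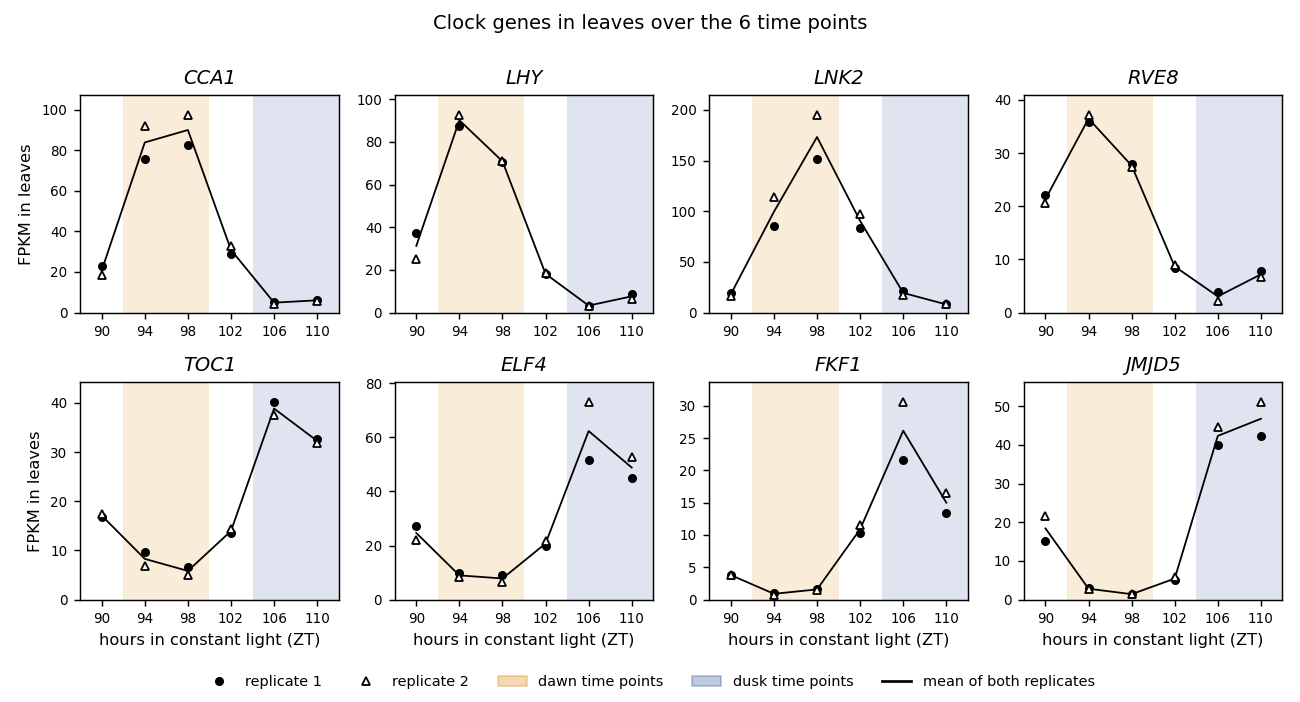
FPKM of 8 clock genes in leaves (y axis, from 0) against hours in constant light (ZT, x axis), with both replicates as points, their mean as a line, and the dawn and dusk time points shaded. CCA1 lies between 75.7 and 97.5 FPKM at dawn and between 4.36 and 6.16 FPKM at dusk, and TOC1 runs the other way.

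The clock output genes GRP7 and GRP8 were both dusk-high. The RNA-binding protein GRP7, which feeds back on its own RNA, had 136 and 163 FPKM at ZT94 and 177 and 147 FPKM at ZT98, against 1891 and 2262 FPKM at ZT106 and 874 and 1176 FPKM at ZT110, a difference of -3.22 ± 0.28 (adjusted p = 0.000651). GRP8, its relative, had 82.2 and 81.6 FPKM at ZT94 and 103 and 83.6 FPKM at ZT98, against 273 and 266 FPKM at ZT106 and 125 and 122 FPKM at ZT110, and differed by -1.06 ± 0.30 (adjusted p = 0.0383). Both were highest at ZT106 and did not overlap between the phases, but after rescaling of the libraries GRP8 was no longer called (adjusted p = 0.0602). CCL, a dusk-high gene of unknown function named for its likeness to CCR genes, had 57.5 and 44.4 FPKM at ZT94 and 188 and 128 FPKM at ZT98, against 991 and 1042 FPKM at ZT106 and 611 and 655 FPKM at ZT110, and differed by -3.16 ± 0.46 (adjusted p = 0.00327).

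In the photoperiod list, 4 of 7 tested genes were dawn-high, against 7.91% of all tested genes, and none was dusk-high (median 1.51). COL2, a CONSTANS-like B-box factor, had 55.1 and 106 FPKM at ZT94 and 81.8 and 119 FPKM at ZT98, against 7.33 and 5.7 FPKM at ZT106 and 7.28 and 7.96 FPKM at ZT110, which gave 3.45 ± 0.20 (adjusted p = 0.000248). Its relative COL1 differed by 1.93 ± 0.26 (adjusted p = 0.0027). The repressors of CO transcription CDF1 and CDF2 differed by 1.51 ± 0.19 (adjusted p = 0.00202) and 1.78 ± 0.13 (adjusted p = 0.000469). The groups did not overlap in these 4 genes. CO itself, the activator of flowering in long days, had 1.96 ± 0.737 FPKM at dawn and 1.91 ± 0.364 FPKM at dusk, a difference of 0.004 ± 0.17 (adjusted p = 0.99). FT, the mobile flowering signal, had 0.387 ± 0.185 FPKM at dawn and 0.898 ± 0.236 FPKM at dusk; the 4 dusk libraries lay above the 4 dawn libraries, but FT missed the threshold (-0.45 ± 0.15, adjusted p = 0.0597).

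Starch genes made up one of the most uniform dusk-high groups. Of 16 tested genes for the breakdown of leaf starch, 12 were dusk-high, against 14.7% of all tested genes, and none was dawn-high. The median difference was -1.24. PHS2, a cytosolic glucan phosphorylase, had 16.5 and 17.4 FPKM at ZT94 and 24.7 and 20.2 FPKM at ZT98, against 114 and 158 FPKM at ZT106 and 91.7 and 101 FPKM at ZT110. ISA3, a debranching enzyme, had 3.98 and 2.99 FPKM at ZT94 and 3.35 and 2.57 FPKM at ZT98, against 21.6 and 27.6 FPKM at ZT106 and 15.8 and 22.4 FPKM at ZT110. PWD, which phosphorylates starch so that enzymes can reach it, had 17.3 and 16.4 FPKM at ZT94 and 11.3 and 9.98 FPKM at ZT98, against 53.1 and 65.5 FPKM at ZT106 and 49.4 and 55.7 FPKM at ZT110. Every dusk library was above every dawn library in these genes, and the differences were -2.48 ± 0.19 (adjusted p = 0.00048) for PHS2, -2.42 ± 0.17 (adjusted p = 0.000413) for ISA3 and -1.97 ± 0.18 (adjusted p = 0.000751) for PWD. LDA, another debranching enzyme, differed less (-0.85 ± 0.092, adjusted p = 0.00128). The 4 that were not called included BAM1 and BAM3, 2 beta-amylases of the chloroplast, at 0.09 ± 0.10 (adjusted p = 0.543) and -0.35 ± 0.39 (adjusted p = 0.552). The others were LSF1 (0.13 ± 0.10, adjusted p = 0.402) and LSF2 (-0.47 ± 0.17, adjusted p = 0.0793). Leaving out any 1 library left 11 to 13 of the 16 dusk-high.

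Of 14 tested genes for starch synthesis, 1 was dawn-high and 5 were dusk-high, against 7.91% and 14.7% of all tested genes. The dawn-high count is near the share of all genes. GBSS1, which makes amylose, was the 1 of 14 that was dawn-high on the deposited scale (3 were after rescaling, and 2 without ZT110 replicate 2): it had 52.5 and 79.5 FPKM at ZT94 and 40.2 and 44.4 FPKM at ZT98, against 2.2 and 3.2 FPKM at ZT106 and 9.16 and 8.29 FPKM at ZT110, a 9.47-fold ratio of means and a difference of 3.16 ± 0.40 (adjusted p = 0.00219). Another 5 were dusk-high. BE3, a branching enzyme, had 12.5 and 11.9 FPKM at ZT94 and 8.57 and 9.01 FPKM at ZT98, against 31.6 and 42.5 FPKM at ZT106 and 31.1 and 35.6 FPKM at ZT110, and differed by -1.66 ± 0.14 (adjusted p = 0.000605). SS4, which starts new granules, differed by -1.39 ± 0.14 (adjusted p = 0.00106), and ISA2, a debranching enzyme that shapes amylopectin, by -0.51 ± 0.081 (adjusted p = 0.00483). ISA1 (-0.41 ± 0.074) and PGM (-0.82 ± 0.13) were the others. The ADP-glucose pyrophosphorylase gene ADG1, whose enzyme controls the rate of synthesis, was not called (0.16 ± 0.10, adjusted p = 0.291).

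Cold-regulated genes gave some of the widest dusk-high differences, and the labels name no cold treatment. Of 13 tested, 9 were dusk-high, against 14.7% of all tested genes, and none dawn-high, with a median of -1.93. KIN2, a small protein that cold induces, had 49.3 and 42 FPKM at ZT94 and 36.5 and 45.9 FPKM at ZT98, against 187 and 1098 FPKM at ZT106 and 417 and 662 FPKM at ZT110. COR78 (also called RD29A) had 10.15 and 5.83 FPKM at ZT94 and 4.75 and 6.77 FPKM at ZT98, against 20.5 and 235 FPKM at ZT106 and 103 and 99.6 FPKM at ZT110. COR15B, a chloroplast protein that protects membranes in freezing, had 5.73 and 2.52 FPKM at ZT94 and 3.65 and 6.16 FPKM at ZT98, against 18.2 and 329.8 FPKM at ZT106 and 66.4 and 117 FPKM at ZT110. In each of the 3 the dawn libraries were all below the dusk libraries, which was a condition for choosing genes by the largest difference. The dusk libraries spread widely, with ZT106 replicate 1 the lowest and ZT106 replicate 2 the highest. The differences were -3.47 ± 0.38 (adjusted p = 0.0014) for KIN2, -3.48 ± 0.60 (adjusted p = 0.00656) for COR78 and -3.99 ± 0.66 (adjusted p = 0.00588) for COR15B.

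This spread between the 2 ZT106 libraries ran through the list. Summed over its 13 tested members, the cold list held 206 to 267 FPKM in dawn libraries and 669 to 3022 FPKM in dusk libraries. COR15A had 8.59 and 5.71 FPKM at ZT94 and 4.69 and 5.28 FPKM at ZT98, against 8.97 and 307 FPKM at ZT106 and 70.2 and 157 FPKM at ZT110. Its lowest dusk value, in ZT106 replicate 1, exceeded the highest dawn value only slightly, and the difference was -1.85 in replicate 1 and -5.08 in replicate 2. The fitted difference for COR15A was -3.47 ± 0.80 (adjusted p = 0.0199), and the call was lost when ZT94 replicate 2, ZT98 replicate 2, ZT106 replicate 2 or either ZT110 library was left out (adjusted p up to 0.0633). COR47 and COR413-PM1, which were abundant in all libraries, were steadier, at -1.93 ± 0.17 (adjusted p = 0.000631) and -2.01 ± 0.19 (adjusted p = 0.000793). CBF3, a transcription factor that turns on these genes, had 0.159 and 0.09 FPKM at ZT94 and 0.076 and 0.598 FPKM at ZT98, against 3.4 and 20.6 FPKM at ZT106 and 3.87 and 4.74 FPKM at ZT110, a difference of -2.56 ± 0.41 (adjusted p = 0.00493). CBF1 was dusk-high too (-0.86 ± 0.19, adjusted p = 0.0154), and CBF2 was not called (-0.44 ± 0.31, adjusted p = 0.337). CBF genes, COR15A and COR15B, and KIN1 and KIN2 are close copies in sequence, so the division of reads within each group is uncertain.

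The largest dusk-high difference of all belonged to AT4G30650, annotated as a protein of a low temperature and salt responsive family. It had 9.04 and 10.7 FPKM at ZT94 and 6.93 and 6.83 FPKM at ZT98, against 93.1 and 312 FPKM at ZT106 and 155 and 215 FPKM at ZT110, which gave -4.26 ± 0.28 (adjusted p = 0.000365) and 23.1-fold higher means at dusk. The median level of the 13 cold genes over the course was 11.3 FPKM at ZT90, 7.06 at ZT94, 4.99 at ZT98, 12.2 at ZT102, 105 at ZT106 and 86.9 at ZT110. When only ZT94 was set against ZT106, 2 cold genes were dusk-high and 1 was dawn-high. Over all 18200 tested genes that fit called 1157 in either direction. Without ZT98 or without ZT110 the count of dusk-high cold genes was 4, and these fits called 1604 and 2205 of all tested genes.

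**Figure D2:**
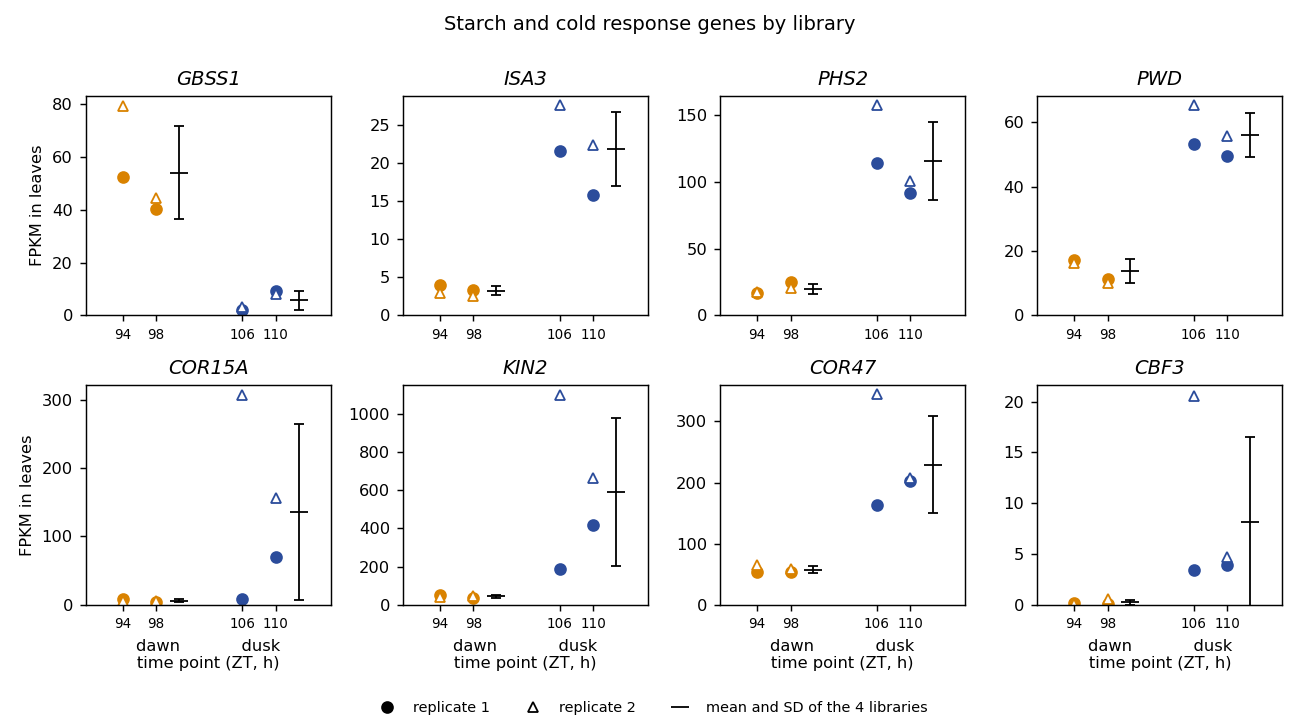
FPKM of 4 starch genes (top) and 4 cold genes (bottom) in the 4 dawn and 4 dusk leaf libraries against time point (ZT, h), with replicates by symbol and the mean and SD of each phase beside the points; the lower error bar of CBF3 ends at 0. All dusk points of PHS2 lie above all its dawn points, while COR15A at dusk runs from 8.97 to 307 FPKM.

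Of 17 tested genes of chlorophyll synthesis 6 were dawn-high and 2 dusk-high, against 7.91% and 14.7% of all tested genes, with a median of 0.13 over the list. HEMA1, the first committed step of tetrapyrrole synthesis, had 206 and 347 FPKM at ZT94 and 158 and 340.3 FPKM at ZT98, against 44.3 and 109.6 FPKM at ZT106 and 61.2 and 90.08 FPKM at ZT110. GUN5, the H subunit of the chelatase that inserts magnesium, had 593 and 769 FPKM at ZT94 and 674 and 883 FPKM at ZT98, against 214 and 371 FPKM at ZT106 and 199.7 and 256 FPKM at ZT110. CAO, which makes chlorophyll b, had 108 and 148 FPKM at ZT94 and 150.4 and 180.1 FPKM at ZT98, against 45.7 and 49.7 FPKM at ZT106 and 32.9 and 39.7 FPKM at ZT110. None of the 3 had overlapping groups, and they differed by 1.78 ± 0.13 (adjusted p = 0.000469), 1.51 ± 0.13 (adjusted p = 0.000605) and 1.77 ± 0.15 (adjusted p = 0.000605), in that order. GUN4, an activator of the chelatase, differed by 1.15 ± 0.10 (adjusted p = 0.000582), and CHLI1 and CRD1 were dawn-high too. Of the dusk-high pair, PORB, a light-dependent reductase, differed by -1.20 ± 0.27 (adjusted p = 0.0182) and HEMA2, the minor isoform of HEMA1, by -0.40 ± 0.071 (adjusted p = 0.00797).

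Genes of the light-harvesting antenna stood mostly higher at dawn, and most were not called. Of 16 tested, 2 were dawn-high (12.5%, against 7.91% of all tested genes), and the median difference was 1.12. LHCB1.1 had 2895 and 3697 FPKM at ZT94 and 5168 and 6291 FPKM at ZT98, against 1059 and 2158 FPKM at ZT106 and 177 and 320.4 FPKM at ZT110, and LHCB2.3 had 595 and 1013 FPKM at ZT94 and 1063 and 1565 FPKM at ZT98, against 229 and 501 FPKM at ZT106 and 46.3 and 93.8 FPKM at ZT110. In both, ZT98 was the highest time point of the comparison and ZT110 the lowest, while ZT94 and ZT106 lay closer together. The differences were 2.84 ± 0.72 (adjusted p = 0.0268) for LHCB1.1 and 2.73 ± 0.63 (adjusted p = 0.0196) for LHCB2.3. Over the course the median level of the 16 genes was 957 FPKM at ZT90, 2506 at ZT94, 3679 at ZT98, 4210.1 at ZT102, 2272 at ZT106 and 767 at ZT110. Set directly against each other, ZT98 and ZT110 gave 15 dawn-high and 1 dusk-high antenna gene, and ZT94 and ZT106 gave 2 and 1. Over all 18200 tested genes these fits called 3988 and 1157 in either direction. The count of dawn-high antenna genes was 0 without either ZT98 library, and 1 without ZT94 replicate 2 or either ZT110 library. It was 6 without ZT106 replicate 2, 9 without ZT106 replicate 1 and 12 without both ZT106 libraries. That last fit called 1990 of all tested genes. The LHCB1 copies are nearly identical over the 50-base reads, so their separate levels are uncertain.

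Plastid regulators and carotenoid enzymes held both kinds, with 5 of 15 dawn-high and 3 dusk-high (6 and 1 after rescaling). Over all tested genes the shares were 7.91% and 14.7%, and after rescaling 1885 of 18200 were dawn-high and 1586 dusk-high. ZEP and NPQ1 run opposite steps of the xanthophyll cycle, which adjusts the dissipation of light, and they moved in opposite directions. ZEP, the epoxidase, had 103 and 126 FPKM at ZT94 and 133 and 138 FPKM at ZT98, against 42.5 and 62.4 FPKM at ZT106 and 48 and 44.5 FPKM at ZT110, and NPQ1, the de-epoxidase, had 21.5 and 23.1 FPKM at ZT94 and 24 and 29.6 FPKM at ZT98, against 55.5 and 79.3 FPKM at ZT106 and 49.9 and 59.9 FPKM at ZT110. Neither had overlapping groups, and the differences were 1.33 ± 0.13 (adjusted p = 0.000841) for ZEP and -1.27 ± 0.12 (adjusted p = 0.000799) for NPQ1. SIG5, a sigma factor that carries clock and light signals to plastid transcription, differed by 1.39 ± 0.17 (adjusted p = 0.00176), and SIG1 by 0.84 ± 0.15 (adjusted p = 0.00814). Outside this list, BETA-OHASE 2, a beta-carotene hydroxylase, had 24.1 and 33.6 FPKM at ZT94 and 17.58 and 23.9 FPKM at ZT98, against 1.55 and 1.13 FPKM at ZT106 and 2.85 and 2.79 FPKM at ZT110, and differed by 3.08 ± 0.25 (adjusted p = 0.00051).

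All 11 tested genes of the list for ribosome production were dawn-high, against 7.91% of all tested genes, with no overlap between the groups in any of the 11. Their differences were narrow in size, between 0.41 and 1.32, with a median of 0.60. NOP56, a core protein of the particles that methylate ribosomal RNA, had 57.1 and 56.4 FPKM at ZT94 and 50.05 and 50.2 FPKM at ZT98, against 25.3 and 26 FPKM at ZT106 and 29.9 and 26.6 FPKM at ZT110. FIB1, the methyltransferase fibrillarin, had 71.7 and 73.7 FPKM at ZT94 and 65.8 and 65 FPKM at ZT98, against 37.9 and 35.9 FPKM at ZT106 and 41 and 35.8 FPKM at ZT110. RPL3A, a protein of the large ribosomal subunit, had 353 and 372 FPKM at ZT94 and 344 and 361 FPKM at ZT98, against 223 and 230.2 FPKM at ZT106 and 241 and 242 FPKM at ZT110. The 4 dawn values lay close together and so did the 4 dusk values in each. The differences were 0.96 ± 0.082 (adjusted p = 0.000591) for NOP56, 0.86 ± 0.074 (adjusted p = 0.000605) for FIB1, 0.61 ± 0.066 (adjusted p = 0.00131) for RPL3A and 0.60 ± 0.062 (adjusted p = 0.00107) for RPS6A of the small subunit. All 11 were called in each fit that left out 1 library. ZT90 and ZT102 were not alike in this group: NOP56 had 38 and 43 FPKM at ZT90, between the phases, and 24.8 and 25.8 FPKM at ZT102, at the dusk level. Motifs known from genes of translation stood in a larger share of dawn-high promoters than of all promoters. The telo box AAACCCTAA was found in 4.74% of dawn-high, 2.18% of dusk-high and 2.59% of all promoters, and the site II element TGGGCC in 26.2%, 16% and 18.2%. Among dawn-high genes that differed by at least 1 on the log2 scale, the shares were 1.8% and 7.19%.

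**Figure D3:**
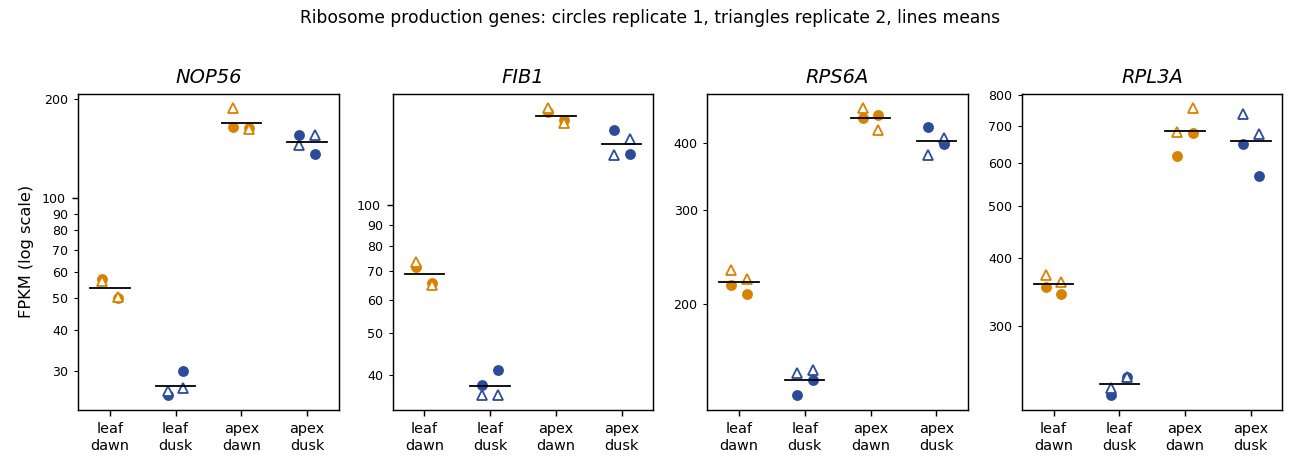
FPKM (log axis) of 4 genes of ribosome production in leaves and in the shoot apex, at dawn and at dusk; circles are replicate 1, triangles replicate 2 and lines the means of 4 libraries. In leaves NOP56 averages 53.4 FPKM at dawn and 26.9 FPKM at dusk, and in the shoot apex 169.5 FPKM at dawn and 148 FPKM at dusk.

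In the lists of this and the next paragraphs, counts stand against 7.91% dawn-high and 14.7% dusk-high among all tested genes. Counts after rescaling stand against 1885 dawn-high and 1586 dusk-high of 18200. The Calvin cycle list did not stand apart from that share, with 2 of 15 genes dusk-high, and 2 dawn-high genes were added after rescaling and 3 without ZT110 replicate 1. The dusk-high pair was CP12-2, a small inhibitor protein of the cycle (-1.25 ± 0.18, adjusted p = 0.00349), and the transketolase TKL1 (-0.69 ± 0.14, adjusted p = 0.0117). Among 11 genes of photorespiration and catalase, 3 were dusk-high. CAT3 had 375 and 361 FPKM at ZT94 and 474 and 481 FPKM at ZT98, against 1314 and 1429 FPKM at ZT106 and 863 and 1067 FPKM at ZT110, and differed by -1.45 ± 0.18 (adjusted p = 0.00202). AGT, a peroxisomal aminotransferase, differed by -0.48 ± 0.10 (adjusted p = 0.0142), and CAT1 by -0.82 ± 0.21 (adjusted p = 0.0305). CAT3 was also high at ZT102, at 1077 and 1002 FPKM.

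In the list of nitrogen and sulfur assimilation, 3 of 12 genes were dawn-high. NIA1, a nitrate reductase, had 56.9 and 55.8 FPKM at ZT94 and 49.7 and 94.6 FPKM at ZT98, against 9.39 and 10.6 FPKM at ZT106 and 34.3 and 23 FPKM at ZT110, and differed by 1.82 ± 0.41 (adjusted p = 0.0183). NIA2, the main nitrate reductase, differed by 1.15 ± 0.33 (adjusted p = 0.0407), and APR2, which reduces activated sulfate, by 1.09 ± 0.21 (adjusted p = 0.011). Flavonoid genes gave 3 dawn-high of 14 (median 0.78). PAL2, the entry enzyme of phenylpropanoids, had 82.5 and 110.2 FPKM at ZT94 and 86.9 and 101 FPKM at ZT98, against 33.9 and 23.3 FPKM at ZT106 and 30.1 and 31.5 FPKM at ZT110, with a difference of 1.65 ± 0.14 (adjusted p = 0.000591), and its relative PAL1 differed by 1.47 ± 0.24 (adjusted p = 0.00542). CHS, the first enzyme of flavonoid synthesis, had 204 and 241 FPKM at ZT94 and 79.7 and 113 FPKM at ZT98, against 9.11 and 16.5 FPKM at ZT106 and 51 and 73.3 FPKM at ZT110, with ZT110 replicate 2 close to ZT98 replicate 1, and differed by 2.34 ± 0.65 (adjusted p = 0.0371). Of 19 glucosinolate genes 4 were dawn-high (0 to 6 without 1 library), all of the methionine branch and all by less than 1: MYB29, its regulator (0.66 ± 0.14), CYP79F2 (0.64 ± 0.16), SOT17 (0.62 ± 0.18) and BCAT4 (0.57 ± 0.16).

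Of 15 genes of light signalling and growth, 3 were dawn-high and 3 dusk-high. Only 1 was dawn-high and 2 dusk-high without ZT94 replicate 2, and likewise without a filter on low values. IAA29, an auxin-inducible repressor, had 0.262 and 0.592 FPKM at ZT94 and 2.35 and 1.63 FPKM at ZT98, against 11.7 and 13.3 FPKM at ZT106 and 6.96 and 7.45 FPKM at ZT110, and differed by -2.36 ± 0.34 (adjusted p = 0.00344). YUC8, an auxin synthesis enzyme, was near or below 1 FPKM in most libraries and differed by -1.07 ± 0.19 (adjusted p = 0.00822), and HAT2 was dusk-high too (-0.76 ± 0.21). HYH, a bZIP factor of light responses, ELIP2, an early light-induced protein, and PIF5, a growth-promoting bHLH factor, were dawn-high at 1.98 ± 0.47 (adjusted p = 0.021), 0.91 ± 0.14 (adjusted p = 0.00386) and 1.33 ± 0.38 (adjusted p = 0.0408). PIF4 was not called (-0.11 ± 0.64, adjusted p = 0.918). In the auxin list 3 of 16 were dusk-high and none dawn-high, a share near the 14.7% of all tested genes: IAA19 (-1.19 ± 0.19, adjusted p = 0.00507), IAA5 (-0.80 ± 0.16, adjusted p = 0.0108) and the exporter PIN7 (-0.83 ± 0.19, adjusted p = 0.021). Of 12 cell wall genes 5 were dusk-high (3 after rescaling, without ZT98 replicate 2 or without ZT106 replicate 2), among them the expansins EXPA11 (-1.71 ± 0.28, adjusted p = 0.00571) and EXPA3 (-0.83 ± 0.14, adjusted p = 0.00568) and the cellulose synthases CESA1 (-0.37 ± 0.071) and CESA3 (-0.34 ± 0.078), and EXPA5 was dawn-high (0.49 ± 0.15).

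Among 10 gibberellin genes, 3 were dusk-high and 1 dawn-high. The receptor GID1A had 7.65 and 6.38 FPKM at ZT94 and 6.68 and 5.4 FPKM at ZT98, against 13.1 and 11.7 FPKM at ZT106 and 12.9 and 11 FPKM at ZT110, and differed by -0.81 ± 0.075 (adjusted p = 0.00074). The repressors GAI and RGL1 differed by -0.55 ± 0.093 (adjusted p = 0.00611) and -0.52 ± 0.15 (adjusted p = 0.0412). GA3OX1, which makes active gibberellin, was dawn-high at 0.85 ± 0.12 (adjusted p = 0.00321). Of 12 abscisic acid genes, the receptor PYL4 (1.41 ± 0.37, adjusted p = 0.0316) and the catabolic enzyme CYP707A3 (1.002 ± 0.29, adjusted p = 0.042) were dawn-high and the phosphatase ABI1 dusk-high (-0.72 ± 0.17, adjusted p = 0.0213). Of 14 jasmonate genes 5 were dusk-high and none dawn-high. AOC2, a synthesis enzyme, had 111 and 40.7 FPKM at ZT94 and 108 and 52.5 FPKM at ZT98, against 212 and 211 FPKM at ZT106 and 265 and 219 FPKM at ZT110, and differed by -1.65 ± 0.22 (adjusted p = 0.00251), and OPR3, VSP1 and LOX2 differed by -0.81 ± 0.14, -0.64 ± 0.13 and -1.29 ± 0.35. Replicate 1 was above replicate 2 in these genes at both dawn time points. Without the replicate block the jasmonate count was 2.

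Heat shock genes were called dusk-high in 3 of 10 cases, HSFA2 (-0.90 ± 0.20), HSP90.1 (-1.22 ± 0.32) and HSP101 (-0.43 ± 0.12), with overlapping groups, and in none without the replicate block. HSP90.1 had 11.9 and 3.23 FPKM at ZT94 and 6.65 and 1.77 FPKM at ZT98, against 22.8 and 3.29 FPKM at ZT106 and 30.5 and 9.47 FPKM at ZT110, with replicate 1 above replicate 2 at every time point. The salicylate list had 1 dusk-high gene of 12 (NPR1, -0.42 ± 0.11), the list of rapid stress genes 1 dawn-high of 10 (TCH2, 0.69 ± 0.18), sugar starvation 1 dusk-high of 14 (BCAT2, -0.35 ± 0.10), aquaporins 1 dusk-high of 10 (GAMMA-TIP, -0.53 ± 0.13) and mitosis 1 dusk-high of 9 (CDKB1;1, -0.42 ± 0.12).

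Leaving out single libraries showed which named calls rested on few values. Of the 126 called genes that the rule for named genes chose, 94 kept their call in each of the 8 fits without 1 library, and 32 lost it in at least 1, with adjusted p-values up to 0.115 and no change of sign. Calls that hung on 1 or 2 libraries were those of PRR5 without ZT94 replicate 2 or without ZT106 replicate 2 (adjusted p up to 0.0598), LHCB2.3 without ZT98 replicate 1 or without ZT98 replicate 2 (adjusted p up to 0.0582), PORB without ZT94 replicate 2 (adjusted p up to 0.0594) and MYB29 without ZT94 replicate 2 (adjusted p up to 0.0512). The others of this kind were NIA1 without ZT98 replicate 2 or without ZT106 replicate 2 (adjusted p up to 0.0547), HSFA2 without ZT98 replicate 2 (adjusted p up to 0.0512) and CESA3 without ZT98 replicate 2 or without ZT106 replicate 2 (adjusted p up to 0.0587). Calls lost in the absence of any 1 of 3 or more libraries, given with the highest adjusted p, were those of LNK1 (without either ZT98 library or either ZT110 library, up to 0.0619), COR15A (without ZT94 replicate 2, ZT98 replicate 2, ZT106 replicate 2 or either ZT110 library, up to 0.0633), LHCB1.1 (without ZT94 replicate 2, either ZT98 library or either ZT110 library, up to 0.0762), HYH (without either ZT94 library or ZT106 replicate 2, up to 0.0653), GRP8 (without either ZT94 library, either ZT98 library or either ZT106 library, up to 0.0946), CAT1 (without ZT94 replicate 2, ZT98 replicate 1, either ZT106 library or ZT110 replicate 1, up to 0.0838), CHS (without either ZT94 library, either ZT98 library or either ZT106 library, up to 0.102) and CYP79F2 (without either ZT94 library, ZT98 replicate 2 or ZT106 replicate 1, up to 0.0728). In addition they were those of SOT17 (without either ZT94 library, either ZT98 library or either ZT106 library, up to 0.112), BCAT4 (without either ZT94 library, either ZT98 library or either ZT106 library, up to 0.113), NIA2 (without either ZT94 library, either ZT98 library or either ZT106 library, up to 0.108), HSP90.1 (without either ZT98 library, ZT106 replicate 1 or either ZT110 library, up to 0.0813), HSP101 (without ZT94 replicate 1, either ZT98 library, ZT106 replicate 1 or either ZT110 library, up to 0.1), LOX2 (without ZT94 replicate 2, either ZT98 library, ZT106 replicate 2 or either ZT110 library, up to 0.0908), NPR1 (without ZT94 replicate 2, either ZT98 library, ZT106 replicate 2 or either ZT110 library, up to 0.083) and TCH2 (without ZT94 replicate 2, ZT98 replicate 2, ZT106 replicate 2 or ZT110 replicate 2, up to 0.0859). The same held for PIN7 (without ZT94 replicate 2 or either ZT106 library, up to 0.0656), ABI1 (without ZT94 replicate 2, either ZT98 library, ZT106 replicate 2 or either ZT110 library, up to 0.0637), PYL4 (without ZT94 replicate 2, either ZT98 library, ZT106 replicate 2 or either ZT110 library, up to 0.09), CYP707A3 (without either ZT94 library, either ZT98 library, either ZT106 library or ZT110 replicate 2, up to 0.0964), RGL1 (without ZT94 replicate 1, either ZT98 library, ZT106 replicate 2 or either ZT110 library, up to 0.109), BCAT2 (without either ZT94 library, either ZT98 library, either ZT106 library or ZT110 replicate 1, up to 0.115), EXPA5 (without either ZT94 library, ZT98 replicate 1, either ZT106 library or either ZT110 library, up to 0.11), GAMMA-TIP (without either ZT98 library, ZT106 replicate 1 or either ZT110 library, up to 0.0698) and CDKB1;1 (without either ZT94 library, ZT98 replicate 2, ZT106 replicate 2 or either ZT110 library, up to 0.109). After rescaling of the libraries 9 of the 126 calls were lost (adjusted p up to 0.0845), those of GRP8, CAT1, HSP101, NPR1, RGL1, BCAT2, CESA3, SIG2 and CDKB1;1. Without the replicate block 17 were lost (adjusted p up to 0.271), those of AT1G69140, SOT17, BCAT4, HSFA2, HSP90.1, HSP101, OPR3, VSP1, NPR1, PYL4, CYP707A3, RGL1, BCAT2, EXPA5, GAMMA-TIP, SIG2 and CDKB1;1. Without a filter on low values 22 were lost, those of LNK1, COR15A, LHCB1.1, LHCB2.3, HYH, GRP8, CAT1, CHS, CYP79F2, SOT17, BCAT4, NIA2, HSP90.1, HSP101, LOX2, NPR1, TCH2, PYL4, CYP707A3, RGL1, EXPA5 and CDKB1;1. Of 7 further called genes given in the text outside that rule, CHLI1, CRD1, ISA1, PGM and CBF1 were called in each fit without 1 library. PIF5 lost its call without ZT94 replicate 2, either ZT98 library or either ZT110 library (adjusted p up to 0.108), and HAT2 without either ZT94 library, ZT98 replicate 1, ZT106 replicate 1 or either ZT110 library (adjusted p up to 0.0929). HAT2 was not called after rescaling (adjusted p = 0.0595), nor CBF1 without the replicate block (adjusted p = 0.104).

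**Figure D4:**
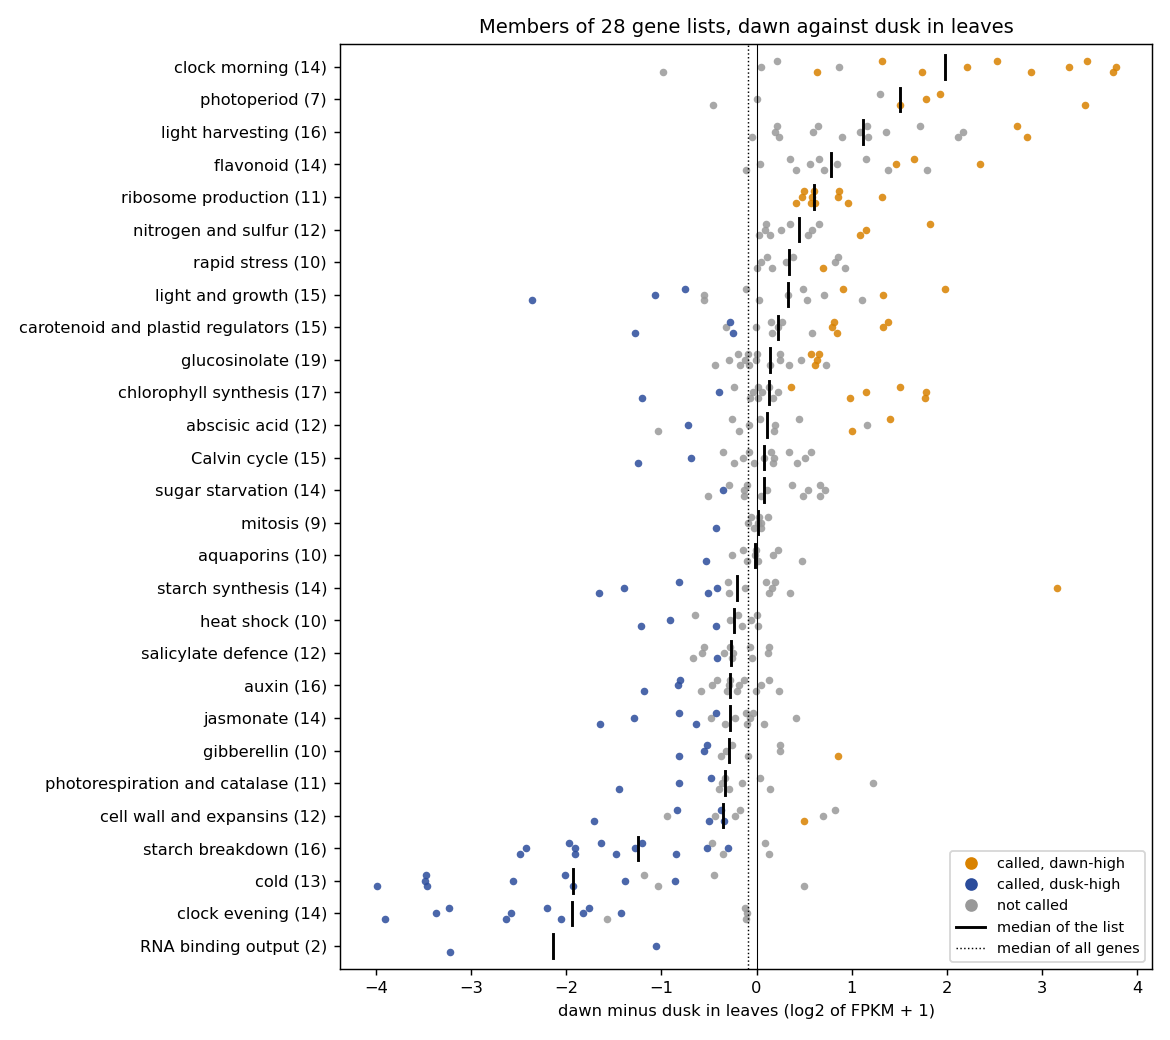
Dawn minus dusk difference in leaves (log2(FPKM + 1), x axis) of the tested members of each list, 1 point per gene, coloured by call, with the median of each list as a bar and that of all genes as a dotted line; the number of members tested is in brackets. All 11 genes of ribosome production lie between 0.41 and 1.32, and 12 of 16 genes of starch breakdown are dusk-high.

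Among the other genes with wide differences, AT1G07050, which carries a CCT motif like that of CONSTANS, had 3.78 and 5.84 FPKM at ZT94 and 3.48 and 2.58 FPKM at ZT98, against 68.9 and 87.8 FPKM at ZT106 and 60.6 and 74.5 FPKM at ZT110, and differed by -3.94 ± 0.19 (adjusted p = 9.93e-05). AT2G33830, of a dormancy and auxin associated family, had 9.55 and 15.7 FPKM at ZT94 and 21.2 and 33.4 FPKM at ZT98, against 292 and 330.2 FPKM at ZT106 and 127 and 173 FPKM at ZT110, and differed by -3.50 ± 0.39 (adjusted p = 0.00143). AT5G23240, a DNAJ domain protein, differed by -3.90 ± 0.28 (adjusted p = 0.000413). It overlaps AT5G23235 in RefSeq, whose difference was -3.76 ± 0.25, and their reads cannot be told apart here. On the dawn side, NDA1, an alternative NAD(P)H dehydrogenase, had 47.5 and 60.6 FPKM at ZT94 and 40.3 and 44 FPKM at ZT98, against 4.05 and 4.48 FPKM at ZT106 and 11.8 and 10.9 FPKM at ZT110, and differed by 2.59 ± 0.33 (adjusted p = 0.00223). The B-box factors BBX16 and STH differed by 2.86 ± 0.15 (adjusted p = 0.000155) and 2.41 ± 0.09 (adjusted p = 5.28e-05). AT1G13650, annotated as an uncharacterized protein, had 41.7 and 70.3 FPKM at ZT94 and 39.9 and 71.7 FPKM at ZT98, against 5.51 and 10.09 FPKM at ZT106 and 5.72 and 7.06 FPKM at ZT110, a difference of 2.79 ± 0.11 (adjusted p = 5.63e-05). None of these genes had overlapping groups, which was a condition for choosing them. AT1G69140, with no product in RefSeq, had 1.44 and 2.33 FPKM at ZT94 and 0.196 and 1.54 FPKM at ZT98, against 2.37 and 118 FPKM at ZT106 and 11.8 and 35.7 FPKM at ZT110: ZT106 replicate 1 lay within 1 FPKM of the highest dawn value, and the difference of -3.22 ± 0.68 (adjusted p = 0.0141) was -1.94 in replicate 1 and -4.51 in replicate 2.

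The phases within each group were unequal. Of dawn-high genes 63.4% had their highest mean at ZT94, 31.9% at ZT98, 2.99% at ZT90 and 1.67% at ZT102. Of dusk-high genes 54.1% were highest at ZT106, 40.3% at ZT110, 3.17% at ZT90 and 2.43% at ZT102. The choice of groups sets the preference for the time points compared. ZT90 and ZT102 were not used in the test and lie on either side of dawn. ZT102 was above ZT90 in 22.6% of dawn-high and 44.9% of dusk-high genes, against 33.8% of all tested genes.

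To see whether leaves differed from the shoot apex in this respect, the dawn minus dusk difference of leaves was set against that of the 8 shoot apex libraries of the same time points, and the difference between the 2 was tested. Of 19986 genes 612 were called (3.06%), 336 above 0 and 276 below, and after rescaling 746 (534 above 0 and 212 below), which moved the share above 0 to 71.6%, against 54.9% as deposited. In 575 of the 612 (93.95%) the difference was wider in leaves, which held for 68.3% of all genes, and in 161 the tissues had opposite signs. A gene needed 1 FPKM in only 2 of the 24 libraries, so genes near 0 in 1 tissue were tested too, and there the added 1 compresses the difference by construction; 25 of the 612 had a shoot apex mean under 1 FPKM. Among the 10450 genes with a mean of at least 5 FPKM in both tissues, a limit chosen for this share after seeing the data, 510 were called and 496 of them (97.3%) were wider in leaves, against 76.7% of all such genes. Leaf calls mostly kept their sign in the shoot apex: 88.1% of dawn-high and 90.11% of dusk-high genes did. Among those that differed by at least 1 in leaves, 97.04% and 96.47% did, with median differences of 1.41 in leaves and 0.64 in the shoot apex for dawn-high genes, and -1.32 in leaves and -0.66 in the shoot apex for dusk-high genes. The share of equal signs over all tested genes was not taken, so these shares are a description. The median over all tested genes was below 0 in both tissues (-0.09 in leaves and -0.04 in the shoot apex). Leaving out 1 library gave 223 to 607 calls. Among leaf libraries the number fell by more than 1.5 times without ZT94 replicate 2 (320), ZT98 replicate 2 (389), ZT106 replicate 2 (291) or ZT110 replicate 2 (385). Among shoot apex libraries it did so without ZT94 replicate 1 (260), ZT98 replicate 1 (265), ZT98 replicate 2 (223), ZT106 replicate 1 (356) or ZT110 replicate 2 (269). The genes that differed by at least 1 were chosen by their leaf difference, so the medians are a description.

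Most clock genes were not called different between the tissues. CCA1 differed by 3.77 ± 0.12 in leaves and 3.71 ± 0.24 in the shoot apex, and LHY by 3.75 ± 0.28 and 3.71 ± 0.44. Against 3.06% of all genes, the tissue difference was called for 1 of 14 morning genes, ASG4, at 1.05 ± 0.20 (adjusted p = 0.0196), and 1 of 14 evening genes, TOC1, at -1.06 ± 0.20 (adjusted p = 0.0196). TOC1 had 24.2 and 23.4 FPKM at ZT94 and 20.03 and 17.2 FPKM at ZT98, against 54.6 and 48.5 FPKM at ZT106 and 45.4 and 43.5 FPKM at ZT110 in the shoot apex. Its direction was the same there, with a difference of -1.15 ± 0.14, against -2.21 ± 0.15 in leaves.

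In the ribosome production list, the tissue difference was called for 10 of 11 genes, and the median difference was 0.60 in leaves and 0.11 in the shoot apex. NOP56 in the shoot apex had 165 and 188 FPKM at ZT94 and 164 and 162 FPKM at ZT98, against 156 and 145 FPKM at ZT106 and 137 and 156 FPKM at ZT110. These groups lay much closer together than in leaves, and the leaf difference exceeded that of the shoot apex by 0.77 ± 0.11 (adjusted p = 0.00454). The same test gave 0.64 ± 0.10 (adjusted p = 0.00715) for FIB1 and 0.55 ± 0.10 (adjusted p = 0.0171) for RPL3A. In the cold list it was called for 6 of 13 genes (5 after rescaling), with medians of -1.93 in leaves and -0.25 in the shoot apex. KIN2 had 87.1 and 51.7 FPKM at ZT94 and 72.6 and 49.6 FPKM at ZT98, against 103 and 209 FPKM at ZT106 and 63.9 and 113 FPKM at ZT110 in the shoot apex, where the phases overlapped, and a tissue difference of -2.66 ± 0.56 (adjusted p = 0.0255). COR15A gave -3.69 ± 0.91 (adjusted p = 0.0473) and CBF3 -2.31 ± 0.53 (adjusted p = 0.0363). Of the 38 tissue differences called among named genes, 12 were lost when some 1 library was left out, those of AT4G30650 (adjusted p up to 0.0785, without shoot apex ZT110 replicate 2), KIN2 (adjusted p up to 0.0595, without shoot apex ZT94 replicate 1), COR15A (adjusted p up to 0.103, without shoot apex ZT110 replicate 2), COR413-PM1 (adjusted p up to 0.103, without shoot apex ZT110 replicate 2) and CBF3 (adjusted p up to 0.0844, without shoot apex ZT110 replicate 2) among them.

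The genes with the smallest p in this test included AT1G13650, with a difference of 2.79 ± 0.11 in leaves and 0.46 ± 0.11 in the shoot apex, so that the tissues differed by 2.33 ± 0.15 (adjusted p = 1.26e-05). AT1G55960, of a lipid transport superfamily, differed by 2.32 ± 0.11 in leaves and 0.51 ± 0.12 in the shoot apex, a tissue difference of 1.81 ± 0.16 (adjusted p = 0.000297). BETA-OHASE 2 had 0.422 and 0.624 FPKM at ZT94 and 0.583 and 0.964 FPKM at ZT98, against 0.137 and 0.354 FPKM at ZT106 and 0.276 and 0.173 FPKM at ZT110 in the shoot apex and gave 2.67 ± 0.29 (adjusted p = 0.00117). All 8 of these values were below 1 FPKM, as were the shoot apex means of AT1G13650 (0.865 FPKM at dawn and 0.351 FPKM at dusk), and the log2(FPKM + 1) scale compresses such differences. For BETA-OHASE 2 the ratio of mean FPKM was 11.9 in leaves and 2.76 in the shoot apex. HEMA1 gave 1.47 ± 0.18 (adjusted p = 0.00347). The leaf difference was the wider dawn-high one in these 4, and the ratio of mean FPKM was the larger there too. BBX16 gave 1.87 ± 0.21 (adjusted p = 0.0017), but that value rests on the added 1: BBX16 had 0.926 and 0.913 FPKM at ZT94 and 0.914 and 1.82 FPKM at ZT98, against 0.05 and 0.115 FPKM at ZT106 and 0 and 0.063 FPKM at ZT110 in the shoot apex. The ratio of mean FPKM was 9.09 in leaves and 20.06 in the shoot apex, and with a pseudocount of 0.1 the tissue difference was 0.15 (adjusted p = 0.862). With that pseudocount the tissue differences of ASG4 (adjusted p = 0.131), IAA29 (adjusted p = 0.0902), NPQ1 (adjusted p = 0.0708) and CBF3 (adjusted p = 0.0609) were lost as well, and the other 33 of the 38 held. HDA3, a histone deacetylase of the nucleolus, was dawn-high in leaves at 1.29 ± 0.081 with a tissue difference of 1.03 ± 0.13 (adjusted p = 0.00454). Among dusk-high leaf genes, SHA1, a RING finger protein, had 11.9 and 12.2 FPKM at ZT94 and 13.2 and 15 FPKM at ZT98, against 42.5 and 39.5 FPKM at ZT106 and 38.7 and 30.5 FPKM at ZT110. In the shoot apex SHA1 had 10.5 and 10.4 FPKM at ZT94 and 10.2 and 9.23 FPKM at ZT98, against 11.1 and 9.48 FPKM at ZT106 and 10.8 and 10.5 FPKM at ZT110. The leaf phases stood apart and those of the shoot apex overlapped, and the tissues differed by -1.41 ± 0.14 (adjusted p = 0.00048). HB5, a homeodomain factor, gave -1.06 ± 0.13 (adjusted p = 0.00252), and AT2G43530 and AT2G43550 of a knottin family gave -1.32 ± 0.17 (adjusted p = 0.00454) and -1.55 ± 0.20 (adjusted p = 0.00454). PDK, the kinase of pyruvate dehydrogenase, gave -0.61 ± 0.08 (adjusted p = 0.00454).

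**Figure D5:**
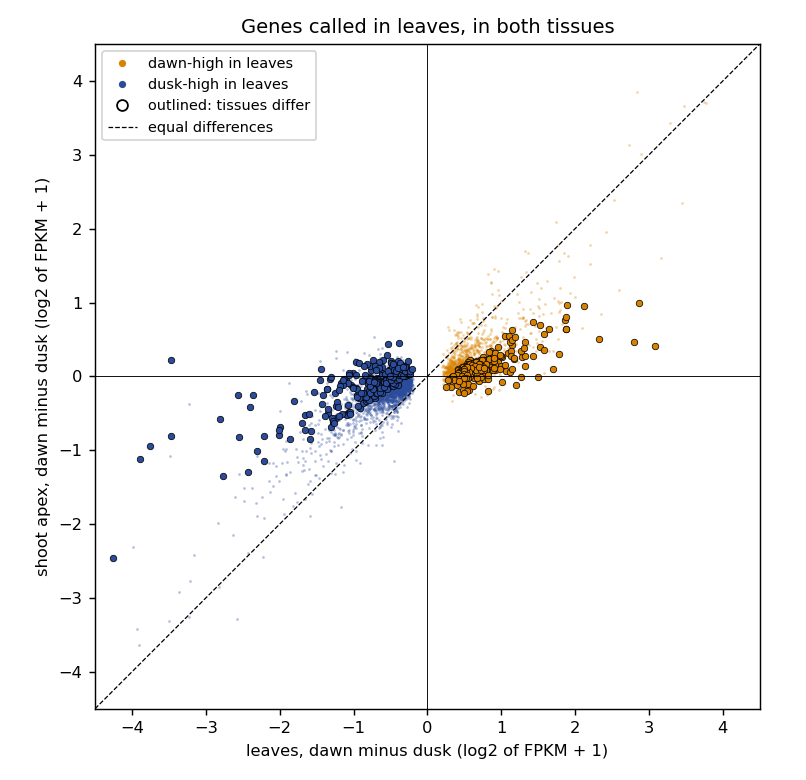
Dawn minus dusk difference (log2(FPKM + 1)) in leaves (x axis) against that in the shoot apex (y axis) for the 4118 genes called in leaves, 1 point per gene, outlined where the tissues differ, with a dashed line of equal differences. Most outlined points lie between the horizontal axis and that line, where the difference is wider in leaves.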

How the data were processed

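Expression was measured by RNA sequencing in 24 libraries, of which 8 leaf and 8 shoot apex libraries enter tests here and 4 more leaf libraries are described. The authors deposited 1 table of FPKM per gene and library. Per the submitters' processing notes, STAR 2.5.0c, HOMER and the build TAIR10 were used; their settings, the counting of multi-mapping reads and the use of strand are not given in the sources used here. Reads were 50 bases long per the labels' protocols. FPKM holds no counts, so depth is known only as an estimate from the steps between low values, and no counting interval is given.

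One gene with a text cell was left out. Values were analysed as log2(FPKM + 1) for genes with at least 1 FPKM in at least 2 leaf libraries (for tissues, at least 2 of 24 libraries) with limma 3.58.1 in R 4.3.3: phase plus replicate number as a block, trended empirical Bayes, Benjamini-Hochberg adjustment over all tested genes and a threshold of 0.05. For tissues the model held tissue, phase and their interaction, with the block within each tissue. The replicate numbers come from the labels, and the series' design names 2 independent experiments without saying which number is which. Deviations of replicate 1 from replicate 2 correlated between time points (r from 0.57 to 0.70 in 6 pairs of time points), so the numbers pair the samples. With 2 replicates per time point, the p-values rest on the spread between these libraries and between the pooled time points of a phase.

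The members and lists were chosen with earlier results of these data known, so a list's direction is no independent evidence. Lists are described by counts and medians, without a test. Of the listed names 8 had no match in RefSeq. Named genes are all clock members, the 15 with the largest difference in each direction (mean of at least 10 FPKM in the higher phase, no overlap of groups), up to 4 called members of every other list by adjusted p with up to 2 against the majority, and the 10 smallest adjusted p for tissues (at least 5 FPKM in both). Other members named in the text were chosen after their values were seen. Of the 134 named genes, 34 overlap another tested gene in RefSeq, and without known strand use their reads may be shared. Promoters are the 300 bases before the gene start in RefSeq, assembly TAIR10.1, matched by locus identifier; motifs were searched on both strands. One promoter sequence is not reported here. The deposited table has no coordinates. Procedures were tested on simulated data, and the alternatives tried are another pseudocount, other filters, rescaled libraries, no block, other treatments of time and leaving out libraries or time points.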

Additional observations from a re-analysis of the deposited data

Results flagged for a closer look

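In 268 groups of 4 leaf libraries (134 named genes, dawn and dusk), 9 had 1 library far from the other 3 by Dixon's criterion, and chance alone sets apart about 1 group in 20. Among dawn groups, ELIP2 had 1.06 FPKM in ZT98 replicate 1 against 1.57 to 1.62 FPKM in the others, GRP8 had 102.7 FPKM in ZT98 replicate 1 against 81.6 to 83.6 FPKM, and LDA had 6.52 FPKM in ZT94 replicate 2 against 5.20 to 5.25 FPKM. NIA1 had 94.6 FPKM in ZT98 replicate 2 against 49.7 to 56.9 FPKM, CBF3 had 0.598 FPKM in ZT98 replicate 2 against 0.076 to 0.159 FPKM, and SIG5 had 16.4 FPKM in ZT94 replicate 1 against 17.44 to 17.58 FPKM. Among dusk groups, CBF3 had 20.6 FPKM in ZT106 replicate 2 against 3.40 to 4.74 FPKM, AOC2 had 264.8 FPKM in ZT110 replicate 1 against 211 to 219 FPKM, and EXPA3 had 31.0 FPKM in ZT106 replicate 2 against 23.3 to 24.1 FPKM.

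For 38 named genes the dawn minus dusk difference was called different between leaves and the shoot apex, by the interaction in limma over 19986 genes. The values are leaves minus shoot apex on the log2 scale. Above 0 were ASG4 (1.05, adjusted p = 0.01964), BETA-OHASE 2 (2.67, adjusted p = 0.001174), BBX16 (1.87, adjusted p = 0.001704), AT1G13650 (2.33, adjusted p = 1.255e-05), HEMA1 (1.47, adjusted p = 0.003469), GUN4 (0.52, adjusted p = 0.03832), PAL2 (1.01, adjusted p = 0.01964), NOP56 (0.77, adjusted p = 0.004544), FIB1 (0.64, adjusted p = 0.007152), RPS6A (0.46, adjusted p = 0.016), RPL3A (0.55, adjusted p = 0.01708), AT1G55960 (1.81, adjusted p = 0.0002973), AT4G33110 (0.56, adjusted p = 0.004544) and HDA3 (1.03, adjusted p = 0.004544). Below 0 were TOC1 (-1.06, adjusted p = 0.01964), AT4G30650 (-1.81, adjusted p = 0.03339), AT5G23240 (-2.78, adjusted p = 0.004544), AT5G23235 (-2.82, adjusted p = 0.002523), KIN2 (-2.66, adjusted p = 0.02555), COR15A (-3.69, adjusted p = 0.04735), IAA29 (-2.10, adjusted p = 0.01964), YUC8 (-1.09, adjusted p = 0.0236), ISA3 (-1.13, adjusted p = 0.03871), BE3 (-0.93, adjusted p = 0.01964), SS4 (-0.86, adjusted p = 0.0318), ISA2 (-0.50, adjusted p = 0.01692), COR413-PM1 (-1.22, adjusted p = 0.04629), CBF3 (-2.31, adjusted p = 0.0363), IAA19 (-1.06, adjusted p = 0.02533), GID1A (-0.64, adjusted p = 0.004811), GAI (-0.50, adjusted p = 0.03276), NPQ1 (-0.67, adjusted p = 0.04934), SHA1 (-1.41, adjusted p = 0.0004805), HB5 (-1.06, adjusted p = 0.002523), AT1G78210 (-0.99, adjusted p = 0.004544), AT2G43550 (-1.55, adjusted p = 0.004544), AT2G43530 (-1.32, adjusted p = 0.004544) and PDK (-0.61, adjusted p = 0.004544). Some of these genes were named because of this test. Of the 38 calls, 12 were lost when some 1 library was left out, and 8 without the replicate block. With a pseudocount of 0.1 the values of ASG4, BBX16, IAA29, CBF3 and NPQ1 were no longer called. BBX16 then stood at 0.15 (adjusted p = 0.862), and on the FPKM scale its ratio was the larger one in the shoot apex.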

How the results depend on the processing

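The number of genes called in leaves was 4118. It was 2717 without the replicate block and 6707 when all 12 leaf libraries were fitted with a mean per time point. It was 1157 for ZT94 against ZT106 and 3988 for ZT98 against ZT110. It was 2036, 1604, 1990 and 2205 with ZT94, ZT98, ZT106 or ZT110 left out. Without 1 library it ran from 2600 to 3640. Without replicate 1 (305) or replicate 2 (12) only 4 libraries and no block remain, so the count over all such fits ran from 12 to 3640. A pseudocount of 0.1 gave 4105 and robust empirical Bayes 4076, both within 1.5 times of 4118. Between tissues 612 genes were called, 255 without the replicate block, and 223 to 607 without 1 library. The evening element stood in 6.47% of dusk-high promoters, and in 16% for differences of at least 1, 8.42% in windows of 500 bases and 12.5% in windows of 1000 bases, both windows chosen after seeing the data.

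No called named gene changed sign under any alternative. Signs turned for clock genes that were not called. For ZT94 against ZT106 RVE2 was at 0.26, RVE7 at -0.80, PRR9 at -0.39 and PRR7 at -2.04. With ZT98 left out RVE7 was at -0.37 and PRR7 at -0.97, and with ZT110 left out RVE7 was at -0.22 and PRR7 at -1.03. Without 1 library RVE7 ran from -0.042 to 0.51 and PRR7 from -0.42 to 0.49, and without replicate 1 PRR7 was at -0.01. TCP21 ran from -0.24 to 0.026 without 1 library, and was at 0.29 for ZT98 against ZT110, 0.061 with ZT94 left out and 0.11 with ZT106 left out. The causes were not tested. Of 126 named calls 117 held after rescaling and 109 without the block, and 22 were lost without a filter on low values. Losses were larger for other choices of time points: 45 for ZT94 against ZT106, and 17 for ZT98 against ZT110. With ZT94, ZT98, ZT106 or ZT110 left out, 33, 42, 23 and 27 were lost. Without replicate 1 or without replicate 2, where only 4 libraries and no block remain, 79 and 116 were lost. Of 38 named tissue differences 33 held with a pseudocount of 0.1, 35 after rescaling and 30 without the block. FPKM without read counts leaves the error of low genes unknown.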

Other observations

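The dawn-high direction of ribosome genes was not limited to the 11 listed. Sorted by product names in RefSeq, with phrases chosen after values had been seen and without a test, 210 of 349 tested genes annotated as ribosomal proteins were dawn-high (60.2%) and 6 dusk-high (1.72%), against 7.91% and 14.7% of all tested genes. Their median difference was 0.40 in leaves and 0.07 in the shoot apex. Nucleolar proteins and factors of ribosomal RNA processing gave 15 dawn-high and 4 dusk-high of 37, translation initiation factors 14 and 3 of 48, and DEAD-box helicases 9 and 0 of 27. Aminoacyl-tRNA synthetases gave 12 dawn-high and 3 dusk-high of 51. Many ribosomal protein genes are close copies of one another, so single levels are uncertain.

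Counts of other product groups on the deposited scale stand against the same 7.91% and 14.7%. Rescaled counts stand against 1885 dawn-high and 1586 dusk-high of all 18200 tested genes. The dusk-high count over all genes shrank on rescaling from 2679 to 1586, and those of the groups given with rescaled counts shrank too. Histone genes gave 0 dawn-high and 13 dusk-high of 44 (29.5% dusk-high), and 0 and 5 after rescaling. Sugar transporters gave 1 and 8 of 38 (2 and 5 after rescaling), and peroxidases 3 and 10 of 44 (5 and 8). Proteasome subunits gave 1 and 5 of 43, with a dusk-high share of 11.6% (1 and 2 after rescaling). Genes of the ubiquitin system gave 8 dawn-high (3.79%) and 34 dusk-high (16.1%) of 211, and 9 and 18 after rescaling. B-box and CCT domain factors gave 9 dawn-high (24.3%) and 10 dusk-high (27%) of 37. Pentatricopeptide repeat proteins gave 41 dawn-high (8.54%) and 38 dusk-high (7.92%) of 480, and 53 and 24 after rescaling.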
